A study of Mus musculus with 68 samples.

Results

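POLE4-KO#1, one knockout clone of the DNA polymerase epsilon subunit POLE4, was compared with the wild-type line WT#1 by RNA sequencing, and the comparison rests on 6 of the 68 libraries of the series, 3 of each line. The libraries were chosen by their labels, with no measured value used. Both lines are E14JU mouse embryonic stem cells (ESCs) of the 129/Ola strain, grown untreated in serum with LIF on gelatin. WT#1 carries the wild-type genotype and POLE4-KO#1 the POLE4 knockout, and each line is a single clone. POLE4-KO#2 and POLE4-KO#3, further clones of the same genotype with 3 libraries each, were used to test where POLE4-KO#1 stood apart from its genotype. Total counts were 20807112, 23807723 and 26719175 in POLE4-KO#1 and 20477221 to 26098796 in WT#1, and libraries of one line differed by more than sampling noise in every pair.

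POLE4 and its partner POLE3 are small histone-fold subunits of polymerase epsilon, the enzyme that copies the leading strand. They bind histones H3-H4 and help to place parental histones, with their modifications, on the leading strand behind the fork. ESCs in serum hold a mixture of naive cells, cells that have begun to express lineage genes, and rare cells that express genes of the 2-cell embryo together with the retrotransposon MERVL. The question behind the comparison was how ESC gene expression differs when this route of histone recycling is lost.

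Pole4 (chr6:82618992-82705365 in mm10, minus strand) was measured at 56.2, 61.3 and 60.7 CPM (counts scaled per 1e6 of the library) in WT#1 and at 3.02, 2.88 and 3.75 CPM in POLE4-KO#1. The groups did not overlap, and 5.41% of the wild-type level was left, at a log2 fold change of -4.20 ± 0.16 (SE, adjusted p = 3.42e-11, edgeR quasi-likelihood test). Pole4 was 7.30 CPM in POLE4-KO#2 and 3.72 CPM in POLE4-KO#3 on average. The other subunits of the enzyme were not called: the catalytic subunit Pole had a log2 fold change of 0.28 ± 0.09 (adjusted p = 0.0245), Pole2 0.35 ± 0.09 (adjusted p = 0.00909) and Pole3 0.03 ± 0.12 (adjusted p = 0.901). A gene was called where its adjusted p was below 0.01 and its log2 fold change beyond 0.58 in either direction, the limits of the study.

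**Figure D1:**
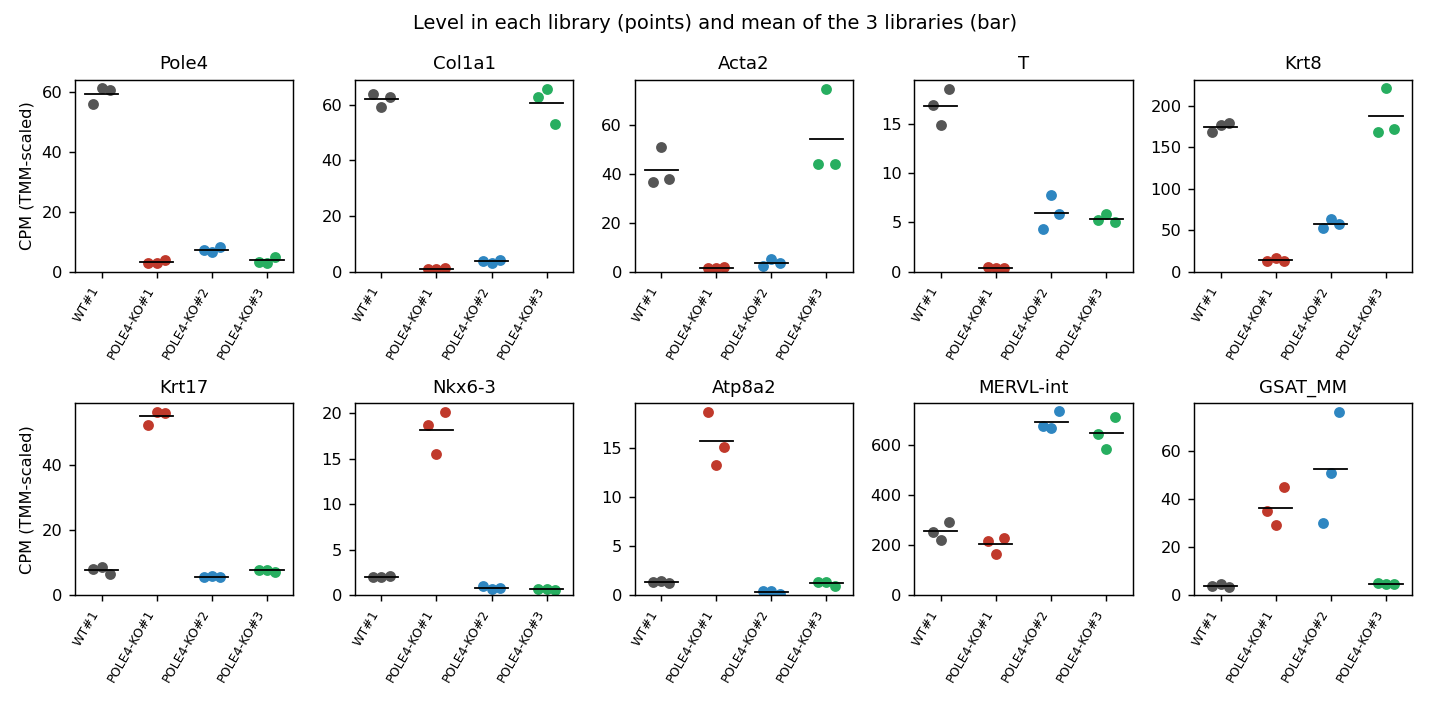
Level in CPM (vertical axes, from 0) of 8 genes and 2 repeat subfamilies in each library (points) of WT#1, POLE4-KO#1, POLE4-KO#2 and POLE4-KO#3, with the mean of the 3 libraries (bar). Pole4 fell in all 3 knockout clones, whereas Krt17, Nkx6-3 and Atp8a2 were high in POLE4-KO#1 alone and MERVL-int was near the WT#1 level in POLE4-KO#1 but high in both other clones.

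Among genes with at least 1 CPM, the largest fitted decreases in POLE4-KO#1 were those of Pramef17, Zfy1, the cardiac actin Actc1, the matrix gene Tnc and the collagen Col1a1, and the largest increases included Atp8a2, Nkx6-3 and Krt17. Of 16864 genes tested, 624 (3.7%) were called higher and 1317 (7.81%) lower than in WT#1, and 40.6% of all genes tested had libraries that did not overlap. All but 1 of the 1941 called genes were among these. At the limit of glmTreat, which tests against the fold-change limit itself, 159 genes were higher and 609 lower. Counts of called members in the lists and chromosome stretches below are to be read beside the shares of 3.7% higher and 7.81% lower.

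**Figure D2:**
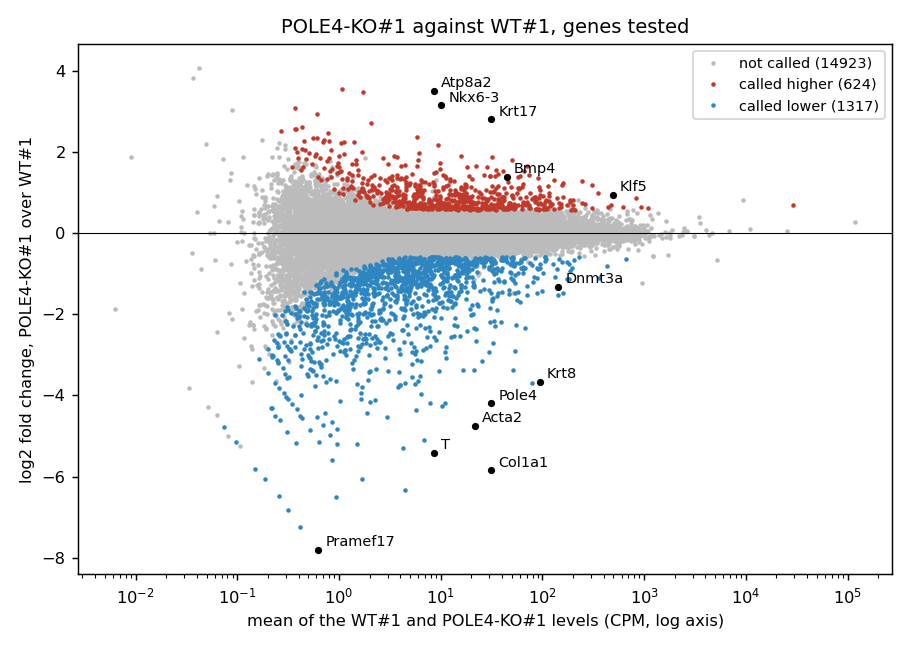
Log2 fold change of POLE4-KO#1 over WT#1 (vertical axis) against the mean level of the 2 lines (horizontal log axis, CPM) for 16864 genes; red and blue mark the 624 genes called higher and the 1317 called lower. The lowest point is Pramef17, at -7.81.

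Several genes of the extracellular matrix fell. Col1a1, the main chain of type I collagen, was measured at 64.1, 59.4 and 62.7 CPM in WT#1 and at 1.03, 0.885 and 1.28 CPM in POLE4-KO#1, a log2 fold change of -5.85 ± 0.14 (adjusted p = 5.09e-13). Its partner chain Col1a2 fell from 3.55 to 0.281 CPM and Col3a1 from 5.58 to 0.538 CPM (log2 fold changes of -3.63 and -3.40). The matrix glycoprotein Tnc had 3 counts in the 3 knockout libraries together against 3.35 CPM in WT#1, a ratio of 75.5 (95% counting interval 25.5 to 369, counting error only). Of 13 tested members of the fibroblast list, 8 fell and none rose, with a median log2 fold change of -1.47 against 0.01 over all genes tested. The intermediate filament Vim (-1.47), Col5a1 (-2.17) and the surface protein Thy1 (-1.25) were among them, whereas Fn1 (-0.20) and Pdgfrb (-0.12) were not called. The summed level of the list ran from 994 to 1096 CPM in WT#1 and from 613 to 720 CPM in POLE4-KO#1. Whether a few differentiated cells carried these transcripts was not tested, and in bulk RNA fewer cells of a type and less RNA per cell cannot be told apart.

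Contractile genes fell with the collagens. Smooth muscle actin Acta2 was measured at 36.5, 50.9 and 38.0 CPM in WT#1 and at 1.29 to 1.78 CPM in POLE4-KO#1, on average 3.65% of the wild-type mean (log2 fold change -4.75 ± 0.29, adjusted p = 6.12e-09). Cardiac actin Actc1 fell from 8.79 ± 2.05 to 0.0996 ± 0.112 CPM and skeletal actin Acta1 from 20.9 ± 3.58 to 1.13 ± 0.532 CPM (SD, n = 3 each). None of these libraries overlapped between the lines. Of 26 tested members of the actomyosin and YAP response list, 17 fell and none rose (median -1.11), and leaving out any single library left 17 or 18 of them lower. They included the actin-binding genes Tagln (-2.26) and Cnn1 (-2.48), the tropomyosins Tpm1 (-1.53), Tpm2 (-1.44) and Tpm4 (-0.89), the focal adhesion genes Zyx (down to 24.9% of the wild-type mean) and Vcl (-0.72), and the YAP target Ankrd1 (-4.13). The actins of every cell were not called, with log2 fold changes of -0.04 for Actb and -0.53 for Actg1.

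Many contractile genes are controlled by serum response factor, which binds a motif called the CArG box. RefSeq promoters (GRCm38.p6) were found for 14 of the 17 genes that fell, and 4 of them held a CArG box, searched on both strands, in the 250 bases before the start of transcription. Over all promoters of that length, 1.47% held one. Of 8 promoters of list members that were not called, 2 held one as well, those of Actg1 and Srf itself. A match is a description of the letters and not evidence of binding. The 4 promoters are shown because their genes fell together, in the sense of each gene, with the CArG box in capitals:
Acta1, chr8:123894776-123895025, minus strand: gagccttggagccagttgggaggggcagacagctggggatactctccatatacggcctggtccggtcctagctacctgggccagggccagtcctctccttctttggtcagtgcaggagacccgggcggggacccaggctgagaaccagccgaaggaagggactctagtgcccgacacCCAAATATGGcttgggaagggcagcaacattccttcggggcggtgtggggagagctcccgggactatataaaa
Cnn2, chr10:79988350-79988599, plus strand: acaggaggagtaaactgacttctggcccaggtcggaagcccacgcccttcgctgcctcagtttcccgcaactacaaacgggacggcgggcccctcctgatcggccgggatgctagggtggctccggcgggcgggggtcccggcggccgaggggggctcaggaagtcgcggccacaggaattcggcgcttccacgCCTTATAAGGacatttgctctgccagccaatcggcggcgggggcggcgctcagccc
Myl9, chr2:156775214-156775463, plus strand: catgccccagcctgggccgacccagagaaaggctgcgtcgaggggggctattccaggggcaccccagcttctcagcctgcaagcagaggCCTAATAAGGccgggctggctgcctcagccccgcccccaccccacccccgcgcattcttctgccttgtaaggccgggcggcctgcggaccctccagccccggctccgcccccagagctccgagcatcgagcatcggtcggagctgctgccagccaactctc
Vcl, chr14:20929148-20929397, plus strand: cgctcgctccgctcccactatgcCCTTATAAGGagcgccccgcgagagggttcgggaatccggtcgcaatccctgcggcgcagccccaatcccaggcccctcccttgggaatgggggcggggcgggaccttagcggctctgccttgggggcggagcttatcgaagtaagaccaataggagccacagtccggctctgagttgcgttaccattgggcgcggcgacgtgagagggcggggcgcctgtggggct
The box begins 73 bases before the start in Acta1, 56 in Cnn2, 161 in Myl9 and 227 in Vcl. The gene with the box nearest to its start, Cnn2, fell from 122 to 56.8 CPM (-1.10), Acta1 fell furthest, and Myl9 fell from 15.1 to 5.97 CPM (-1.34).

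Genes of the primitive streak, where mesoderm forms, and targets of WNT signalling were lower. T, which encodes the mesoderm factor Brachyury, was measured at 16.9, 14.8 and 18.5 CPM in WT#1 and at 0.432, 0.398 and 0.348 CPM in POLE4-KO#1 (log2 fold change -5.41 ± 0.24, adjusted p = 2.07e-10). Of 24 tested list members 12 fell and 1 rose (median -1.12). The ligand Wnt3 fell from 10.0 to 1.26 CPM, and the WNT target Axin2 was measured at 29.7, 30.5 and 32.2 CPM in WT#1 and at 7.18, 9.47 and 8.71 CPM in POLE4-KO#1 (-1.86 ± 0.10, adjusted p = 2.63e-09). Further WNT and streak genes on the list fell as well: Sp5 (-3.40), Nkx1-2 (-5.20), Mixl1 (-2.89) and the ligand Fgf8 (-3.93). Members of the Nodal pathway were not called, with log2 fold changes of 0.08 for Nodal, -0.03 for Lefty1 and -0.18 for Lefty2. The one member that rose was the ligand Bmp4, at 60.9, 67.4 and 65.6 CPM against 23.9, 25.9 and 23.6 CPM in WT#1 (1.40 ± 0.08, adjusted p = 5.48e-09).

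Simple-epithelium keratins and trophectoderm factors fell. Krt8 was measured at 168, 177 and 179 CPM in WT#1 and at 12.2, 16.4 and 12.5 CPM in POLE4-KO#1 (-3.67 ± 0.13, adjusted p = 1.79e-11), and its filament partner Krt18 fell from 93.6 to 8.99 CPM (-3.38). Of 17 tested trophectoderm genes 9 fell, among them the lineage factor Cdx2 (-2.82) and Hand1 (-2.67), and the summed level of the list fell from between 413 and 422 CPM to between 137 and 145 CPM. The homeobox genes Rhox6 (1.27) and Rhox9 (1.44) rose, and Gata3, another trophectoderm factor, was not called (-0.66, adjusted p = 0.0181). The stress keratin Krt17 moved the other way, from 8.14, 8.66 and 6.51 CPM in WT#1 to 52.1, 56.2 and 55.9 CPM (2.81 ± 0.10, adjusted p = 3.22e-11).

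Both lines expressed the markers of ESCs: the core and naive markers Pou5f1 (0.05), Sox2 (0.21), Nanog (0.30), Zfp42 (-0.02), Esrrb (0.38), Klf4 (-0.05), Utf1 (0.09) and Dppa5a (0.06) were not called and were between 115 and 1067 CPM in POLE4-KO#1. Of 26 tested pluripotency genes 3 rose and none fell (median 0.14), beside 3.7% of all genes tested called higher and 11.5% called in either direction. The 3 were Klf5, a naive factor (0.94), Nr0b1 (0.62) and the RAS relative Mras (1.12).

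Genes of the formative state, which ESCs enter on leaving naive pluripotency, were lower, with 11 of 22 tested members down, 2 up and a median of -0.87. The POU factor Pou3f1 was measured at 37.0, 35.9 and 32.8 CPM in WT#1 and at 12.4, 15.4 and 11.8 CPM in POLE4-KO#1 (-1.42 ± 0.11, adjusted p = 6.70e-08). Otx2, which drives the exit from the naive state, fell from 36.0 to 16.2 CPM, the WNT effector Lef1 from 26.5 to 9.72 CPM and the de novo DNA methyltransferase Dnmt3a from 203 to 81.3 CPM (log2 fold changes of -1.15, -1.45 and -1.32). The DNA demethylase Tet1 rose from 588 to 1083 CPM (0.88, adjusted p = 0.000434). Gbx2, a homeobox gene that responds to LIF, rose as well, from 24.4 to 47.6 CPM (0.97).

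Primitive endoderm genes gave a mixed picture, with 8 of 23 tested members lower and 2 higher (median -0.68). Those that fell were receptor, endocytosis and matrix genes: the collagen chaperone Serpinh1 fell from 57.1 to 8.74 CPM (-2.71), Col4a1 from 45.5 to 16.5 CPM (-1.47) and the endocytic adaptor Dab2 from 5.82 to 2.68 CPM (-1.10). Of 7 lineage factors on the list, only 4 passed the low-count filter, at a summed level of 3.42 to 5.15 CPM in WT#1. The factors Gata4 (0.42, adjusted p = 0.258) and Gata6 (-0.19, adjusted p = 0.766) were not called. Sox7 rose from 1.77, 1.33 and 1.35 CPM to 5.61, 5.53 and 5.38 CPM (1.90 ± 0.18, adjusted p = 7.18e-07), and the laminin Lama1 from 94.7 to 222 CPM (1.23).

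**Figure D3:**
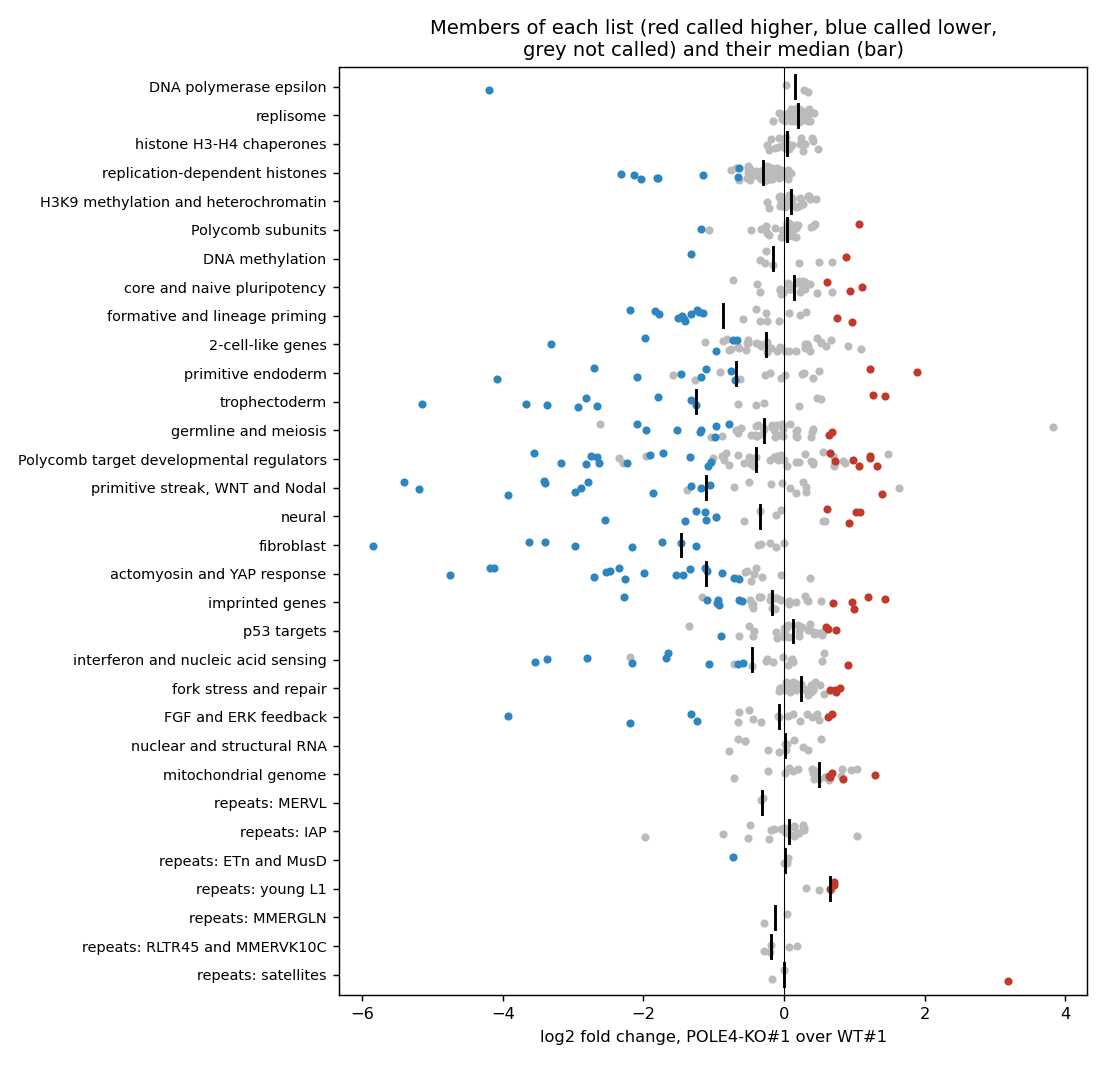
Log2 fold change over WT#1 (horizontal axis) of each tested member of the gene and repeat lists (points; red called higher, blue called lower, grey not called), with the median of the list (bar). The fibroblast, trophectoderm, primitive streak, actomyosin and formative lists have medians from -1.47 to -0.87, and the replisome and heterochromatin lists lie close to 0.

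Genes of interferon signalling and antigen presentation were lower in 9 of 23 tested members and higher in 1 (median -0.45). The guanylate-binding protein Gbp2 fell from 38.9 ± 2.69 to 3.73 ± 0.575 CPM (SD, n = 3 each), a log2 fold change of -3.37 (adjusted p = 3.22e-11). The RNA sensor Oas1a (-2.81) and the class I antigen H2-K1 (-1.65) fell too, and the interferon signalling factor Irf9 rose (0.91). Between 6 and 9 members were lower when single libraries were left out.

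The machinery of replication and chromatin hardly moved, whereas replication-dependent histone genes lay mostly below WT#1. None of 44 replisome genes, 22 H3-H4 chaperones or 25 genes of H3K9 methylation and heterochromatin was called, although 40 of the 44 replisome genes lay above 0 (median 0.20, and between 0.17 and 0.22 with single libraries left out). Of 70 replication-dependent histone genes 8 fell (median -0.29), beside 7.81% of all genes tested, the largest decrease being that of the testis linker histone Hist1h1t (-2.33). The others called were Hist1h1e, Hist1h2aa, Hist1h2ba, Hist2h4, Hist3h2a, Hist3h2ba and Hist3h2bb-ps, so most members of the list were not called. Only 4 of the 70 lay above 0. Their summed level ran from 8005 to 9355 CPM in WT#1 and from 6650 to 7662 CPM in POLE4-KO#1. The median over WT#1 was also below 0 in POLE4-KO#2 (-0.52) and POLE4-KO#3 (-0.43). In the fork stress and repair list 4 of 29 members rose (median 0.24): Brca1 (0.65), Brca2 (0.72), Fanci (0.80) and the repriming enzyme Primpol (0.75). None of these 4 was called with glmTreat. The p53 targets were near 0 (median 0.13), with 3 of 30 higher and 1 lower, the cell cycle inhibitor Cdkn1a (-0.89). Both lists stand beside 3.7% higher and 7.81% lower over all genes tested.

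Polycomb target developmental regulators passed the low-count filter in 55 of 130 cases, 7 of them higher and 12 lower (median -0.39). Pou4f1 (1.22), Pou4f2 (1.23) and Tbx20 (1.07) rose, and En1 (-2.75) and Hoxb9 (-1.90) fell. Leaving out single libraries gave 4 to 7 higher and 7 to 9 lower, with 7 lower without WT#1 library 6, WT#1 library 8 or POLE4-KO#1 library 1, and 4 higher without POLE4-KO#1 library 2 (the WT#1 libraries are numbered 6 to 8). Of 27 tested Polycomb subunits, 1 was called higher and 1 lower (median 0.05), beside 11.5% of all genes called in either direction. Phf19, which brings PRC2 to chromatin, rose from 8.86 to 18.5 CPM (1.06) and the PRC1 member Yaf2 fell (-1.18). The lists of neural and germline genes were split as well, with 4 higher and 6 lower of 17 neural genes and 2 higher and 8 lower of 45 germline genes. Over all genes tested, 3.7% were called higher and 7.81% lower. Leaving out any single library left 1 germline gene higher and 5 to 7 lower, with 5 lower without POLE4-KO#1 library 3.

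Imprinted genes also moved in both directions, with 5 of 34 higher and 7 lower (median -0.17). The number lower was 4 without WT#1 library 6 or library 8 and 3 without POLE4-KO#1 library 2. The growth factor gene Igf2 was measured at 22.8, 26.4 and 22.9 CPM in WT#1 and at 4.80, 4.25 and 5.77 CPM in POLE4-KO#1 (-2.28 ± 0.13, adjusted p = 4.58e-09). The adaptor Grb10, a brake on growth factor signalling, rose from 77.1 to 154 CPM (1.00). In the FGF and ERK feedback list, 2 of 20 members rose and 4 fell (median -0.08). The ligand Fgf15 (0.69) and the signalling inhibitor Spred1 (0.63) rose, and the ligands Fgf5 (-1.23) and Fgf8 (-3.93) fell. The phosphatase Dusp4 fell from 64.4, 66.5 and 62.0 CPM to between 13.7 and 14.6 CPM (-2.19 ± 0.09, adjusted p = 1.32e-10), and Dusp5 (-1.32) fell with it.

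Genes named for the size of their change alone completed the picture. Nkx6-3, a homeobox factor, rose from 1.96, 2.05 and 2.08 CPM to 18.8, 15.6 and 20.1 CPM (3.16 ± 0.15), and the lipid flippase Atp8a2 from 1.37, 1.44 and 1.25 CPM to 18.6, 13.2 and 15.1 CPM (3.52 ± 0.19). Msln, a surface protein, rose from 1.92 to 9.85 CPM and Themis from 0.538 to 3.62 CPM. Other large increases started from levels under 0.5 CPM: Aldh3b2 (2.95), Tie1 (2.46), Fxyd4 (2.31), Il17re (2.27), Krt13 (2.26), Lypd2 (2.25) and C1qtnf6 (2.23). Pramef17, one of a family of oocyte and early embryo genes, had no count in any POLE4-KO#1 library against 0.834, 1.33 and 1.59 CPM in WT#1, so that it was at least 27.9-fold lower (floor of 3 counts over the 3 libraries). The Y-linked gene Zfy1 had 1 count against 1.85 CPM, a ratio of 125 (95% counting interval 22.1 to 4980.4). The macrophage growth factor Csf1 fell from 13.5 to 0.357 CPM, the lipoxygenase Alox15 from 8.39 to 0.222 CPM, and Sprr2a2, Crxos and Pde1a were down to 2, 3 and 2 counts.

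Repeat subfamilies lay mostly above WT#1 without being called. Of 863 tested, 722 had a log2 fold change above 0 (median 0.34), 24 (2.78%) were called higher and 1 (0.116%) lower, 2.9% in all. The median over WT#1 was above 0 in the other knockout clones too, at 0.75 in POLE4-KO#2 and 0.46 in POLE4-KO#3. The major satellite GSAT_MM, the repeat of pericentromeric heterochromatin, stood out at 35.0, 29.1 and 45.0 CPM against 3.63, 4.71 and 3.57 CPM in WT#1 (3.19 ± 0.28, adjusted p = 4.34e-06). The groups did not overlap, and GSAT_MM was called under every alternative that was run. The next increases were RMER12B (1.34), MLTR18A_MM (1.36), MER67C (1.18) and Charlie4a (1.16). Of 14 alternatives, the call was lost under 5 for RMER12B, 4 for MLTR18A_MM, 11 for MER67C and 1 for Charlie4a. The number of repeats called higher rested on single libraries, being 99 without the second POLE4-KO#1 library and between 3 and 15 without any other one.

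Young L1 elements, the retrotransposons still active in mouse, were higher in 3 of 6 subfamilies (median 0.66). L1Md_T was measured at 1510.3, 1047 and 1393 CPM in WT#1 and at 2422, 1692 and 2335 CPM in POLE4-KO#1 (0.71 ± 0.16, adjusted p = 0.00866), and between 0 and 4 of the 6 subfamilies were called when single libraries were left out. None was called without WT#1 library 7 or 8 or POLE4-KO#1 library 1 or 3. IAPEz-int, an endogenous retrovirus silenced by H3K9 methylation, was not called (0.27 ± 0.07, adjusted p = 0.0124), nor were MMERGLN-int (0.05) and RLTR45-int (-0.20). ETnERV3-int was the only subfamily lower (-0.73, adjusted p = 0.00958), a call that was lost under 12 of 14 alternatives. Mitochondrial transcripts were 4.99% to 5.96% of counts in POLE4-KO#1 and 3.22% to 3.96% in WT#1, and their part in the repeat levels was not tested.

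In POLE4-KO#1 the genes of 2-cell-like cells were not called higher than in WT#1. Of 41 tested members none was higher and 5, all multicopy genes, were lower (median -0.25). Between 2 and 5 were lower with single libraries left out, with 2 lower without WT#1 library 8 or POLE4-KO#1 library 3. The summed level of the list ran from 398 to 436 CPM in WT#1 and from 468 to 506 CPM in POLE4-KO#1. Zscan4d, a marker of that state, was 2.40, 1.52 and 2.75 CPM in WT#1 and 1.24, 1.73 and 1.93 CPM in POLE4-KO#1 (-0.40 ± 0.22, adjusted p = 0.203). MERVL-int was 254, 223 and 295 CPM in WT#1 and 219, 165 and 230 CPM in POLE4-KO#1 (-0.33 ± 0.12, adjusted p = 0.0529), and its promoter repeat MT2_Mm gave -0.29 (adjusted p = 0.0221). The libraries of both lines overlapped for Zscan4d and MERVL-int. Copies of the Zscan4 cluster and the Usp17l family are nearly identical, so how their reads were divided among them is uncertain.

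POLE4-KO#1 was next tested against the mean of POLE4-KO#2 and POLE4-KO#3, a contrast that uses no WT#1 library. In it 573 genes (3.4%) were higher and 1571 (9.32%) lower in POLE4-KO#1, with 3 repeat subfamilies (0.348%) higher and 39 (4.52%) lower, 4.87% in all. For the 2-cell-like list 36 of 41 members were lower and none higher (median -2.29), including all 9 tested members of the Zscan4 cluster. MERVL-int averaged 205 CPM in POLE4-KO#1 against 695 CPM in POLE4-KO#2 and 648 CPM in POLE4-KO#3, a log2 difference of -1.72 ± 0.11 (adjusted p = 1.92e-08). RLTR45-int differed likewise, at 21.1 CPM against 149 and 91.0 CPM (-2.47, adjusted p = 1.35e-09).

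Several of the changes over WT#1 were not equal among the clones. Col1a1 averaged 3.73 CPM in POLE4-KO#2 and 60.6 CPM in POLE4-KO#3, next to 1.06 CPM in POLE4-KO#1, and POLE4-KO#1 was lower than the mean of the others (-3.80, adjusted p = 4.69e-11). T was 5.98 and 5.37 CPM in the other clones against 0.393 CPM (-3.85, adjusted p = 7.39e-09), and Krt8 57.8 and 187 CPM against 13.7 CPM (-2.92, adjusted p = 6.76e-11). GSAT_MM was 52.4 CPM in POLE4-KO#2 and 4.79 CPM in POLE4-KO#3, so that the clone with the wild-type satellite level was POLE4-KO#3. H19, an imprinted long RNA beside Igf2, was 4.51, 3.65 and 4.58 CPM in WT#1 and 2.64, 1.73 and 2.24 CPM in POLE4-KO#1, and averaged 98.1 CPM in POLE4-KO#2 and 158 CPM in POLE4-KO#3.

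The changes were not spread evenly over the chromosomes. On chromosome 14, 93 of 564 tested genes were called higher, beside 3.7% of all genes tested, and 2 stretches stood above the rest. Between Dock5 and Stk24 (chr14:67752135-121380011, mm10) 134 genes had a median log2 fold change of 0.63, with 63 called higher and 4 lower, and between Gm47694 and Kif13b (chr14:60210974-64809617) 32 genes had a median of 0.44. The median of the longer stretch was -0.07 in POLE4-KO#2 and -0.01 in POLE4-KO#3, and that of the shorter one was -0.77 and 0.00, so that POLE4-KO#2 was low where POLE4-KO#1 was high. Klf5, Sox7, Fgf17, Tnfrsf10b and Gata4 lie within these stretches, whereas Bmp4 and Atp8a2, also on chromosome 14, lie outside them.

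**Figure D4:**
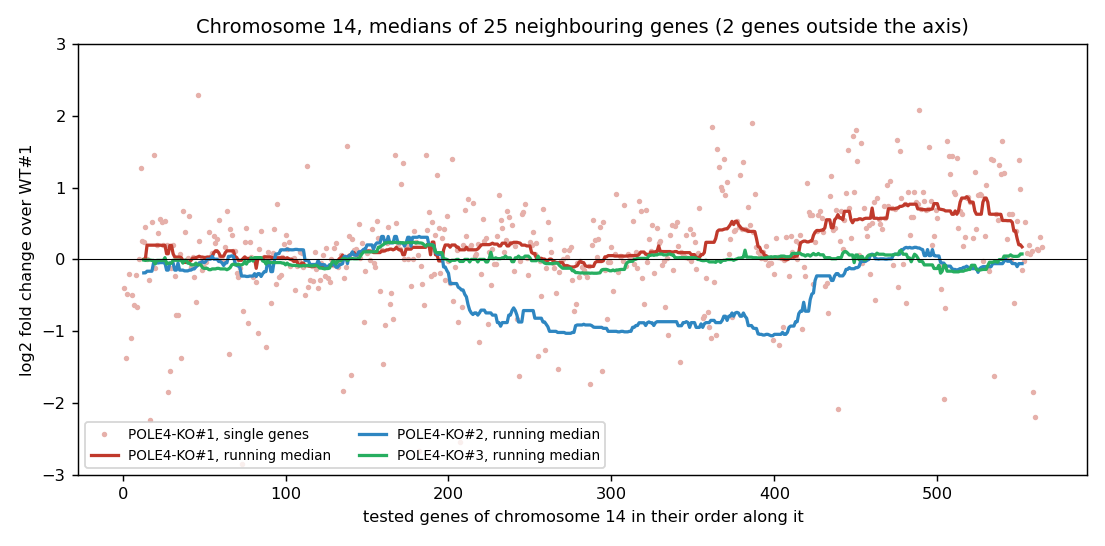
Log2 fold change over WT#1 (vertical axis) of the 564 tested genes of chromosome 14 in their order along it (horizontal axis), as single genes for POLE4-KO#1 (points) and as medians of 25 neighbouring genes for the 3 knockout clones (lines). Toward the right end, in the longer stretch, the line of POLE4-KO#1 lies above 0 while those of POLE4-KO#2 and POLE4-KO#3 are near 0 over most of it. Left of it the line of POLE4-KO#2 runs well below 0.

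Of the stretches at least 25 genes long, the lowest was on the X chromosome between Gpr50 and Pnck (chrX:71663667-73660117). Its 27 genes had a median of -0.98 and 7 were called lower, beside 7.81% of all genes tested. It holds the germ-cell genes Xlr3a, at 1.75 CPM in WT#1 and 0.129 CPM in POLE4-KO#1 (-3.65), and Xlr4b, with no count in POLE4-KO#1. The stretch had medians of 0.09 in POLE4-KO#2 and 0.70 in POLE4-KO#3. On chromosome 4, 50 genes between BC080695 and Gm13147 (chr4:143551700-147259338), a region with the Pramef family, had a median of -0.34 with 8 called lower. The medians of that stretch were 0.41 in POLE4-KO#2 and 0.32 in POLE4-KO#3. In all, 186 stretches of 25-gene medians lay more than 0.2 from the median of all genes, 12 of them at least 25 genes long. The 4 described here were chosen after their values were seen. Another X stretch of 58 genes, between Xpnpep2 and 3830417A13Rik, had a median of -0.31 with 13 called lower, and the rest had medians from -0.30 to 0.36.

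Since each line is a single clone, the differences were set beside those among wild-type clones of the same cell line. In another experiment of the series 7 clones, WT#1 among them, were sequenced in August with 2 libraries each (30046007 to 51904648 counts), and each clone was compared with WT#1 of its own table. CPM of the clone table are read only against WT#1 of that table, since of 9306 genes with at least 10 CPM in either, 688 differed in WT#1 by more than 8-fold. Of the 1941 called genes, 740 (38.1%) differed more between POLE4-KO#1 and WT#1 than between any of the 6 other wild-type clones and WT#1, against 20.4% of all genes tested. Genes were called in part for the size of this same difference, so a higher share among them follows from the choice. The share was 54.0% of the genes called higher and 30.6% of those called lower.

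One wild-type clone, WT#6, differed from WT#1 of its table in the same direction as POLE4-KO#1 for the genes given next, while its Pole4 was 68.6 and 66.9 CPM. Col1a1 was 1.03 and 0.457 CPM in WT#6 and 37.7 and 53.7 CPM in WT#1 of the same table, and T was at most 0.304 CPM against 25.2 and 33.3 CPM. Low levels of both genes were also found in other wild-type clones. Col1a1 was between 1.46 and 4.18 CPM in WT#3, WT#7 and WT#8, and T between 1.55 and 5.89 CPM in these clones and WT#4. Nkx6-3 was 17.2 and 15.6 CPM in WT#6 and at most 0.718 CPM in every other August library, and Atp8a2 was 15.2 and 18.1 CPM against at most 2.08 CPM. Bmp4 and Krt17 were also highest in WT#6, Bmp4 at 79.3 and 77.8 CPM and Krt17 at 26.2 CPM on average. With WT#6 left out, 63.8% of the called genes lay beyond every wild-type clone, against 28.9% of all genes tested. This count was made after these values were seen, and the choice of called genes bears on it in the same way.

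Medians over some groups of genes showed the same clone, and over others did not. Over the genes called higher in POLE4-KO#1 the median log2 difference from WT#1 was 0.68 in WT#6 and 0.06 to 0.25 in the other 5 clones, and over those called lower it was -1.67 in WT#6 and -1.09 to -0.29 in the others. The longer chromosome 14 stretch had a median of 0.49 in WT#6 and between -0.12 and -0.02 in the others, and the X stretch -1.18 against 0.03 to 0.13. The shorter chromosome 14 stretch was 0.55 in WT#6 and 0.06 in WT#4, but between -0.93 and -0.83 in the other 4 clones. The formative list stood at -1.07 in WT#6 and at -0.16 to 0.03 in the others. The core and naive pluripotency list was 0.15 in POLE4-KO#1, 0.64 in WT#6 and between 0.13 and 0.44 in the other wild-type clones. The contractile list was low in several clones, with -1.82 in WT#6 and -1.25, -1.24 and -0.90 in WT#7, WT#8 and WT#3, next to -1.14 in POLE4-KO#1. The primitive streak and WNT list was between -1.65 and -1.19 in WT#3, WT#6, WT#7 and WT#8, each below the -1.14 of POLE4-KO#1, and the fibroblast list was between -1.34 and -1.01 in the same clones, less far from 0 than in POLE4-KO#1. The trophectoderm list was -2.52 in WT#6, -1.01 in WT#8 and between -0.81 and 0.00 in the other wild-type clones, against -1.25 in POLE4-KO#1. The interferon list was -0.93 in WT#6, -0.83 in WT#3, -0.57 in WT#8 and -0.44 in WT#7, against -0.44 in POLE4-KO#1. It was -0.21 in WT#4 and -0.08 in WT#2. The 2-cell-like list was -2.23 in WT#6, -0.99 in WT#8 and -0.26 in POLE4-KO#1 on this scale, and between -0.07 and 0.18 in the other wild-type clones. The chromosome 4 stretch was -0.34 in POLE4-KO#1, 0.01 in WT#6 and between -0.10 and 0.21 in the other wild-type clones. The primitive endoderm list was -0.67 in POLE4-KO#1, -0.24 in WT#6 and between -0.36 and 0.13 in the other wild-type clones. How WT#6 and POLE4-KO#1 are related by derivation was not given in the sources used here. In the comparison of POLE4-KO#1 with WT#1 alone, clone and genotype cannot be told apart. For Nkx6-3, Atp8a2 and Krt17 the increase was seen in WT#6, with Pole4 at the wild-type level, and not in the other POLE4-KO clones. Log2 fold changes over WT#1 in POLE4-KO#2 and POLE4-KO#3 were -1.33 and -1.61 for Nkx6-3, -2.04 and -0.18 for Atp8a2 and -0.45 and -0.04 for Krt17. These genes have the largest increases over the other POLE4-KO clones, so their lack of increase there follows from the choice. The cause of their increase in POLE4-KO#1 was not tested.

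**Figure D5:**
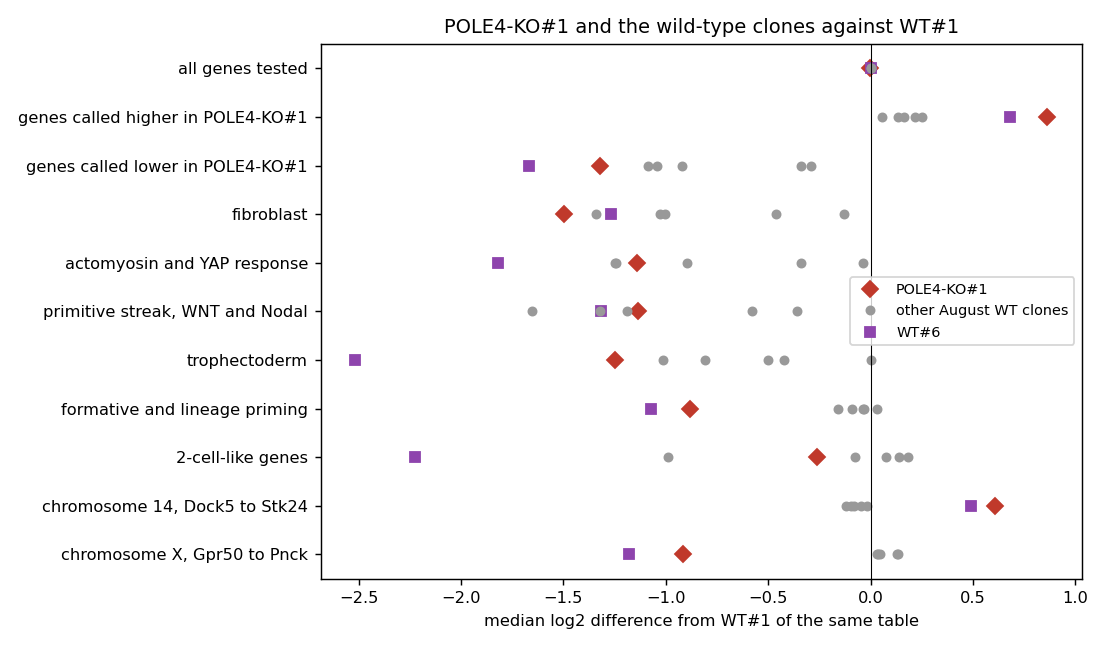
Median log2 difference from WT#1 of the same table (horizontal axis) over groups of genes, for POLE4-KO#1 (red diamonds), WT#6 (purple squares) and the other 5 August wild-type clones (grey circles). WT#6 lies near POLE4-KO#1 for both plotted chromosome stretches, for the genes called higher and for the formative list, where the other clones are near 0.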

How the data were processed

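rRNA-depleted, strand-specific libraries were sequenced as read pairs. Per the labels' processing notes, the authors used Trimmomatic 0.39 for trimming, STAR 2.7.1a for alignment (mm10) and featureCounts for counting. The deposited values are unnormalised counts of genes and of repeat subfamilies. The study names GENCODE vM23 and a RepeatMasker-based subfamily annotation. The strand setting of the counting is not given in the sources used here, so overlapping genes are uncertain. Repeat subfamilies sum many copies. The low-count filter was filterByExpr (min.count 10, min.total.count 15). All 12 libraries of the 4 lines were fitted as 4 groups with edgeR 4.0.16 quasi-likelihood tests in R 4.3.3, scaled by TMM factors from genes alone. Genes and repeats were adjusted separately by the Benjamini-Hochberg method, at an adjusted p of 0.01 and a log2 limit of 0.58. SE is the log2 fold change over the square root of F. The fit was tested on simulated data. CPM are scaled by TMM, and log2 CPM of clones used a prior count of 2. Replicates are labelled as biological.

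The members, gene lists and alternatives were chosen with earlier results of these data known. Named genes are the polymerase epsilon subunits, called list members, the 12 largest increases and decreases with at least 1 CPM and no overlap between lines, the 5 largest repeat changes, and the 6 largest differences from the other clones in each direction. Symbols and mm10 positions come from GENCODE vM21, the release used here in place of vM23, so some may differ. Same-numbered libraries of the POLE4-KO clones share an experiment in the study's sample table, and their residuals correlated above 0.1 in 9 of 9 pairs (0.151 to 0.329) and in 0 of 18 others. The WT#1 columns carry other numbers than their labels. 3 columns of the clone table matched no single sample and were left out, and the rescue experiment's table was not used here. DESeq2 1.42.0 was an alternative.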

Additional observations from a re-analysis of the deposited data

Results flagged for a closer look

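These genes were called in both contrasts and had the largest differences, in each direction, between POLE4-KO#1 and the mean of the other POLE4-KO clones, tested directly with edgeR. Log2 differences above 0 were 4.63 for Nkx6-3, 4.62 for Atp8a2, 3.06 for Krt17, 2.61 for the serpin Serpinb6c, 2.30 for the growth factor Fgf17 and 2.15 for Lypd2. Fgf17 was measured at 64.0, 55.2 and 65.0 CPM in POLE4-KO#1 and at 10.2 to 15.1 CPM in the 6 libraries of the other clones, and Serpinb6c at 24.0 to 26.6 CPM against 3.39 to 5.94 CPM.

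Differences below 0 were -9.38 for Pramef17, -7.19 for Xlr4b, -6.51 for Krt20, -6.13 for Xlr3a, -5.89 for Ccdc80 and -5.83 for H19. Pramef17, Xlr4b, Krt20 and Ccdc80 had no count in POLE4-KO#1, so their fitted values depend on the prior count. Against the mean of the other clones they were at least 86.4-fold, 20.2-fold, 14.5-fold and 13.8-fold lower (floor of 3 counts over the 3 libraries). H19 was at most 2.64 CPM in POLE4-KO#1 and between 83.8 and 175 CPM in the other clones. In the clone table its range over the August wild-type clones was 0.705 to 65.8 CPM, on a scale that is not read against the levels above.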

How the results depend on the processing

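The gene counts kept within 1.5 times of their value under every alternative except glmTreat, which gave 159 higher and 609 lower against WT#1 and 169 higher and 746 lower against the other clones. Without single libraries, 532 to 606 genes were higher and 1029 to 1183 lower than in WT#1. Repeat subfamilies called higher over WT#1 (24) were 15 with TMM from genes and repeats, 52 with no filter, 4 with the 6 libraries alone, 1 with glmTreat and 3 to 99 without single libraries. The 1 called lower became 6 with no filter, 0 to 1 without single libraries, and 0 with RLE scaling, the 6 libraries, the most abundant gene left out, glmTreat and scaling by autosomal genes outside chromosome 14, which was added after seeing the data. Against the other clones, repeats called lower (39) were 64 with no filter and 16 with glmTreat, and those called higher (3) were 0 with glmTreat. The causes were not tested. Of 220 features named over WT#1, some of them not called, 140 kept their status as called or not called in all alternatives. Calls of 48 were lost in at least 1 alternative other than glmTreat, and 0 changed direction.

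No paired analysis was possible for POLE4-KO#1 against WT#1 because the WT#1 columns do not carry the labels' numbers. For the contrast among clones, the replicate block over the 9 POLE4-KO libraries gave 610 genes higher, 1711 lower, and 4 and 53 repeats (559, 1515, 3 and 39 without it), and changed no call of a named gene. Depth limits genes under about 1 CPM. Members of multicopy families share reads.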
